A study of Mus musculus with 16 samples.

Results

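A set of 62 genes, of 37991 in the deposited table, stood higher in mouse fibroblasts under a chemical treatment that turns them into neural stem-like cells than in the fibroblasts before it and in the stem-like cells. The genes were selected on their measured levels. A gene was kept when its mean level was at least 5 CPM (counts of the gene scaled to a shared total in each library) on each of days 4, 8 and 12, and each of those means was at least 5 times the mean of untreated fibroblasts and at least 5 times the mean of the neural stem-like cells that the treatment yields. Of the 10068 genes at 5 CPM or more on all 3 days, 151 were at least 5 times the untreated level throughout, and 62 of those 151 also stood at least 5 times above the stem-like cells. The 62 carry 61 symbols, since the potassium channel gene Kcnb2 has 2 identifiers. A further 4 were grouped as unnamed or predicted genes, though the olfactory receptor gene Olfr1318 among them is named.

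The starting cells (D0, 2 libraries) were tdMEFs, mouse embryonic fibroblasts of 129xC57BL6 background with an Fsp1-Cre driver and a ROSA26 tdTomato reporter, so the red mark follows the promoter of Fsp1, a fibroblast gene that some macrophages also express. They were sampled again after 4, 8 and 12 days in M9 medium (D4, D8 and D12, 3 libraries each), which holds the GSK3 inhibitor CHIR99021, the BMP receptor inhibitor LDN193189, the TGF-beta receptor inhibitor A83-01, the Hedgehog agonist Hh-Ag1.5, retinoic acid, the autophagy enhancer SMER28, the DNA methylation inhibitor RG108, the LSD1 inhibitor Parnate and bFGF. The medium is free of serum and the cells were kept at lower oxygen than the untreated fibroblasts, so the agents, the medium, the oxygen and the time in culture cannot be told apart in these comparisons. ciNSLC (3 libraries of the same background) are the neural stem-like cells obtained by this treatment. Single libraries of SCR029, a C57BL6 mouse neural stem cell line from cortex at embryonic days 15 to 18, and of priNPC, primary cortical progenitors of a younger embryonic stage on the 129xC57BL6 background, did not enter the selection. Replicate 1 of each group and SCR029 belong to batch 1 in the sample descriptions, and all other libraries to batch 2.

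Some of the agents in the medium act on signalling routes with known target genes. Retinoic acid binds nuclear receptors that switch on genes of retinoid uptake and breakdown, among them Stra6. A Hedgehog agonist activates Smoothened, after which Gli factors turn on Gli1, Ptch1 and Hhip, and most of these encode feedback regulators of the pathway. Inhibitors of DNA methylation and of the demethylase LSD1 act on chromatin and can open genes that fibroblasts keep silent. Keratins, claudins, desmosome proteins and the casein genes are products of epithelia and are normally low in fibroblasts.

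The libraries held 14.5 to 34.6 M counts outside mt-Rnr1 and mt-Rnr2, which encode mitochondrial rRNA (M, mega), and levels are CPM over those counts. The limit that an observed count of 0 sets at 95% confidence, 3 counts, stood for 0.0868 to 0.207 CPM. The mitochondrial rRNA share of all counts ran from 33.2% to 52.7% in the batch 1 libraries of days 4, 8 and 12, against 16.5% to 28.4% in their batch 2 libraries. Batch 1 and batch 2 libraries of the same day also differed more from each other, with a chi-square per degree of freedom of 327 to 475 over genes, than the pairs of batch 2 replicates did at 6.21 to 74.6. Together the 62 genes took 2914 to 4609 CPM in the 9 treated libraries, against 316.5 and 272.7 CPM at D0 and 77.5 to 114.6 CPM in ciNSLC. Their median mean level was 1.11 CPM at D0, 22.5 on day 4, 23.9 on day 8, 19.0 on day 12 and 0.429 in ciNSLC. At D0 29 of the 62 were below 1 CPM, and in ciNSLC 41 were, 4 of them without any count in the 3 libraries. The mean at D0 was above that of ciNSLC for 47 of the 62. For 56 of the 62 all 9 treated libraries lay above every D0 and every ciNSLC library, which also held for 3.29% of the 17453 genes tested. Since the selection used these groups, nothing is read from that count, and no test is given for any level against D0 or ciNSLC. "On only during treatment" is thus too strong for the set, since 7 and 13 of the 62 reached 5 CPM in the D0 libraries. The D0 libraries also stood apart from each other, with a summed level of 12 myeloid markers of 18.2 CPM in the first and 5055 CPM in the second. The selection gave 77 genes, 57 of them among the 62, without the second D0 library, and 59 genes, 51 of them among the 62, without the first. The part of myeloid cells in these levels was not tested. In such bulk samples, more cells of a type that expresses a gene and more RNA per cell cannot be told apart.

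**Figure D1:**
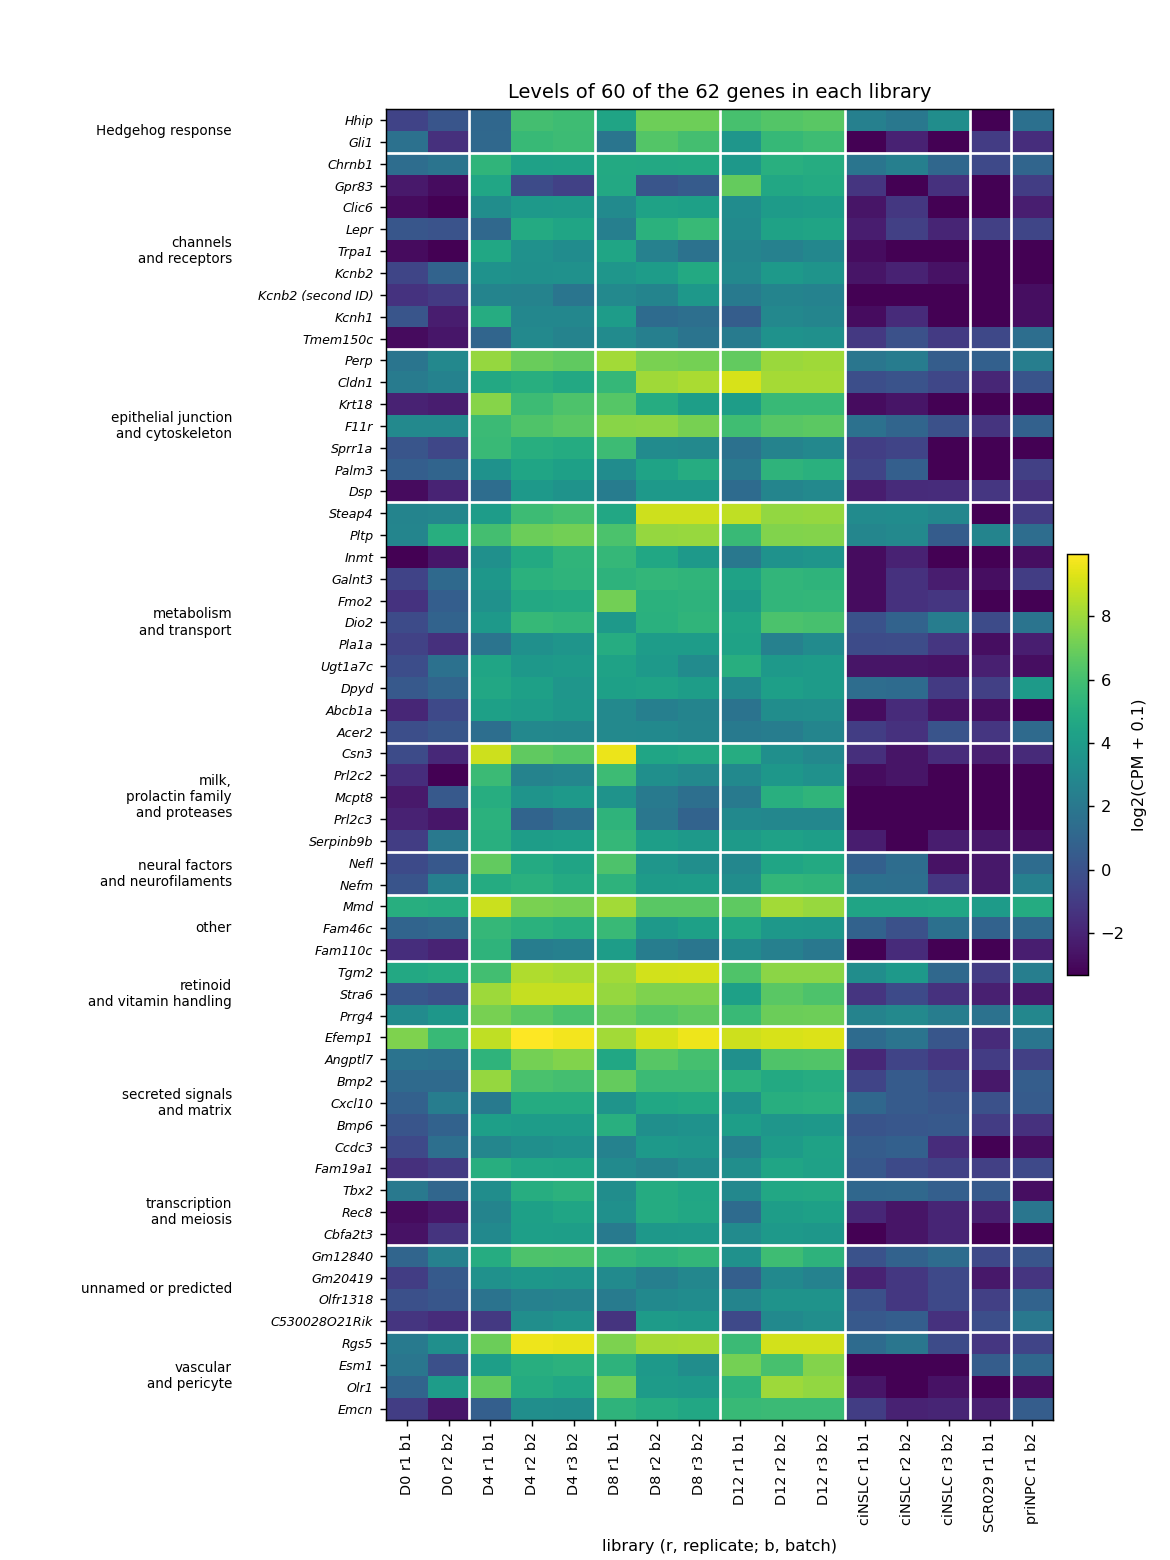
Heat map of log2(CPM + 0.1) for 60 of the 62 genes (rows, grouped by role) in all 16 libraries (columns, with replicate and batch). The 9 treated libraries form a band of high values between D0 and ciNSLC, and columns of batch 1 and batch 2 within a day differ for many genes, for example the Hedgehog genes at the top.

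Genes close to the limits of the selection show how sharp it is. Nearest to a limit on the inside was Olfr1318, with a day 4 mean of 5.01 CPM against the minimum of 5. Also just inside were the monocyte to macrophage differentiation gene Mmd, with a lowest treated mean of 155.6 CPM against 31.0 at D0, and Efemp1, with 549.2 against 108.5. Just outside were Odz2, a teneurin of developing neurons with a day 4 mean of 4.94 CPM, the cytokine gene Tnfsf9, with a lowest treated mean of 13.97 CPM against 2.90 at D0, and Mab21l3, with 7.26 against 1.53. Gene spans named in the text are in mm9, the build of the deposited table.

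The group closest to the retinoic acid in the medium held Stra6, the membrane receptor for retinol-binding protein that carries retinol into cells, and Tgm2, a protein-crosslinking transglutaminase long used as a marker of retinoid response. Stra6 (mm9 chromosome 9, 57911595 to 58001803, plus strand) measured 263, 449.6 and 446 CPM on day 4, 236, 171 and 171 on day 8 and 19.08, 94.0 and 76.8 on day 12. It measured 1.13 and 0.899 CPM at D0 and 0.320, 0.691 and 0.273 in ciNSLC. Every treated library was above every other one, and in both batches the level was highest on day 4. Tgm2 measured 61.1, 332 and 306 CPM on day 4, 280.3, 535 and 552 on day 8 and 80.0, 203 and 199 on day 12, and 25.6 and 28.8 CPM at D0 and 9.20, 14.4 and 2.18 in ciNSLC. The batch 1 libraries of days 4 and 12 were the lowest of the treated ones. Prrg4, a membrane protein with a vitamin K-dependent Gla domain, ranged from 52.2 to 153 CPM over the 9 treated libraries, with 8.51 and 13.1 CPM at D0 and 6.04, 7.67 and 4.86 in ciNSLC. Of 24 genes on a list of retinoid uptake, synthesis and response, Stra6 and Tgm2 met the selection. Rarb, a retinoic acid receptor that is itself a retinoid target, missed it because ciNSLC held 12.9 CPM against 27.0 on day 12.

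The Hedgehog group included Gli1, the transcription factor that is both output and amplifier of the pathway, and Hhip, a membrane protein that binds and sequesters Hedgehog ligands. Gli1 measured 2.16, 50.1 and 56.0 CPM on day 4, 3.48, 84.6 and 64.2 on day 8 and 12.5, 48.5 and 56.9 on day 12. At D0 it stood at 3.04 and 0.262 CPM, and in ciNSLC at 0, 0.138 and 0, so the batch 1 libraries of days 4 and 8 lay between the D0 libraries or just above them. Hhip measured 2.06, 64.4 and 58.2 CPM on day 4, 21.4, 131 and 130.5 on day 8 and 68.9, 86.8 and 93.8 on day 12, and 0.550 and 1.05 CPM at D0 and 5.40, 3.87 and 9.22 in ciNSLC. In batch 1 its level went from 2.06 to 21.4 and 68.9 CPM over the 3 days, while in batch 2 it was already at 64.4 and 58.2 CPM on day 4. Both are among the 6 genes whose treated libraries overlapped the untreated or ciNSLC ones. Their selection rested on batch 2, since both met it in batch 2 libraries alone and neither did in batch 1 alone. Ptch1, the main Patched receptor and on the same list of 12 Hedgehog genes, measured 47.5, 431 and 396 CPM on day 4, 122, 931 and 1288 on day 8 and 379, 330.1 and 317 on day 12. It was lower in batch 1 on days 4 and 8 but not on day 12. It was not selected because it stood at 167, 209 and 203 CPM in ciNSLC.

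**Figure D2:**
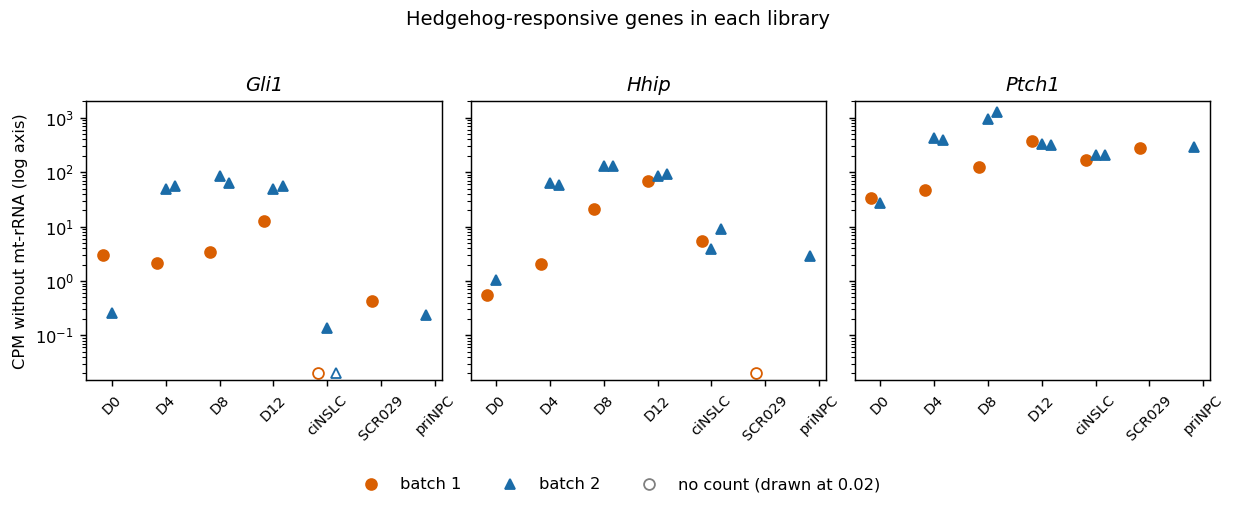
CPM of Gli1, Hhip and Ptch1 in each library (log axis), by group on the horizontal axis. Circles are batch 1 and triangles batch 2 libraries, and open symbols mark libraries without a count. On days 4 and 8 the batch 1 circles of Gli1 (2.16 and 3.48 CPM) lie far below the batch 2 triangles (50.1 to 84.6 CPM).

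Secreted signals and matrix proteins made up 7 of the 62. Efemp1, the matrix glycoprotein fibulin-3, had the highest level per length of the set, at 305 CPM per kilobase of exon over the treated libraries. Its CPM was 412, 1007 and 853 CPM on day 4, 278, 571 and 798 on day 8 and 490.3, 569 and 616 on day 12, with 168 and 49.1 CPM at D0 and 2.42, 3.32 and 1.09 in ciNSLC. It was thus the gene of the set with the highest untreated level, and the D0 libraries differed from each other. Bmp2, a bone morphogenetic protein ligand, measured 232, 71.0 and 64.3 CPM on day 4, 114, 52.7 and 53.9 on day 8 and 37.4, 26.7 and 29.6 on day 12, and 2.31 and 2.32 CPM at D0 and 0.568, 1.31 and 0.764 in ciNSLC. Batch 1 was the higher one on each day, and within either batch the order was day 4, day 8, day 12. Bmp6, a second ligand of that family, ranged from 9.65 to 32.9 CPM in treated libraries, against 1.04 and 1.72 CPM at D0 and 0.995, 1.10 and 1.20 in ciNSLC. The medium contains a BMP receptor inhibitor, and its part in the levels of these BMP ligand genes was not tested. Angptl7, a secreted angiopoietin-like protein, ranged from 10.1 to 178 CPM, and Cxcl10, an interferon-inducible chemokine, from 4.27 to 34.2 CPM, where the lowest treated library was below the second D0 library at 4.91 CPM. The secreted proteins Ccdc3 and Fam19a1, the latter chemokine-like, ranged from 5.51 to 20.3 and from 6.01 to 32.8 CPM.

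Epithelial junction and cytoskeleton genes made up another 7. Krt18, the keratin partner of Krt8 in simple epithelia, had a lowest treated mean 302 times that of D0, the widest margin in the set when the lowest treated mean is divided by the higher of the D0 and ciNSLC means and a mean under 0.1 CPM is set to 0.1. It measured 188, 54.6 and 75.3 CPM on day 4, 87.6, 30.4 and 17.4 on day 8 and 16.5, 50.4 and 49.6 on day 12, and 0.145 and 0.112 CPM at D0 and 0.0355, 0.0691 and 0 in ciNSLC. Its partner Krt8 stayed low, at 2.01, 2.61 and 4.44 CPM on day 4 and at most 2.13 CPM afterwards, and it had no count at D0. Perp, a desmosome-associated membrane protein first described as a p53 target, measured 231, 120.4 and 107 CPM on day 4, 282, 159 and 144 on day 8 and 111, 255 and 269 on day 12, and 3.47 and 7.34 CPM at D0 and 3.69, 4.70 and 1.42 in ciNSLC. F11r, the junctional adhesion molecule JAM-A, measured 52.7, 78.2 and 95.2 CPM on day 4, 194, 201 and 153 on day 8 and 58.5, 92.3 and 99.5 on day 12, and 7.52 and 7.49 CPM at D0 and 3.02, 1.93 and 0.873 in ciNSLC. All 3 day 8 libraries of F11r were above those of the other days. Cldn1, a claudin of tight junctions, measured 25.5, 31.9 and 25.6 CPM on day 4, 46.4, 274 and 314 on day 8 and 566, 294 and 287 on day 12, with 4.54 and 5.95 CPM at D0 and 0.817, 0.967 and 0.600 in ciNSLC. It was the member nearest to D0 of this group on day 4 and the highest of them on day 12. Dsp, the desmosome plaque protein desmoplakin, ranged from 2.38 to 14.3 CPM, Sprr1a, a cornified envelope precursor, from 3.02 to 55.3, and the paralemmin gene Palm3 from 4.05 to 39.4. The defining epithelial markers did not come up as a whole: of 20 simple epithelial markers, Krt18 alone was selected, and 12 to 14 of them stayed under 1 CPM in every library of a given treated day. The summed level of those 20 markers was 134.9 to 146.2 CPM at D0, 139.8 to 236.5 on day 4, 82.7 to 162.8 on day 8 and 27.3 to 80.3 on day 12. Of 12 stratified epithelial markers Dsp alone was selected, and their sum was 3.44 to 6.22 CPM at D0 and 5.97 to 19.11 CPM in treated libraries. Whether epithelial cells among the cultures had a part in these levels was not tested.

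The vascular and pericyte group held 4 genes. Rgs5, a regulator of G-protein signalling that marks pericytes, measured 128, 797 and 744 CPM on day 4, 164, 287 and 300.3 on day 8 and 54.0, 544 and 531 on day 12, and 4.37 and 9.81 CPM at D0 and 2.45, 3.59 and 0.710 in ciNSLC. Emcn, the endothelial sialomucin endomucin, measured 1.54, 9.43 and 9.21 CPM on day 4, 40.0, 30.1 and 25.5 on day 8 and 50.3, 54.0 and 54.2 on day 12, and 0.434 and 0.0749 CPM at D0 and 0.426, 0.138 and 0.164 in ciNSLC. Its treated libraries were ordered by day, with no overlap between days. Esm1, the endothelial proteoglycan endocan, ranged from 9.15 to 183 CPM, was highest on day 12 and had no count in ciNSLC. Olr1, a receptor for oxidised low-density lipoprotein, measured 109.8, 29.0 and 23.4 CPM on day 4, 126, 15.8 and 14.7 on day 8 and 40.2, 264 and 225 on day 12, but the second D0 library already held 16.4 CPM, above both batch 2 libraries of day 8. Of the defining endothelial markers, Pecam1 stayed under 1 CPM in all 16 libraries. Cdh5, the endothelial cadherin, measured 0.618, 3.32 and 2.97 CPM on day 4, 0.999, 22.3 and 21.7 on day 8 and 1.21, 9.54 and 9.29 on day 12, against 0 and 0.150 CPM at D0 and 0, 0.0691 and 0 in ciNSLC. The summed level of 13 endothelial markers was 145.8 and 158.1 CPM at D0, 25.5 to 48.3 CPM on day 4, 103.3 to 110.0 CPM on day 8 and 101.1 to 113.1 CPM on day 12, and 5 to 7 of them stayed under 1 CPM in every library of a treated day. The part of endothelial cells in the levels of these genes was not tested.

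Channels and receptors made up 9 entries. Clic6, a chloride intracellular channel family protein, measured 9.06, 14.8 and 15.3 CPM on day 4, 8.13, 20.4 and 18.9 on day 8 and 8.78, 15.4 and 16.6 on day 12, and no more than 0.345 CPM in any D0 or ciNSLC library. Lepr, the leptin receptor, measured 2.16, 27.8 and 22.1 CPM on day 4, 5.30, 35.8 and 49.0 on day 8 and 7.99, 20.0 and 21.9 on day 12, and 1.07 and 0.974 CPM at D0 and 0.107, 0.484 and 0.164 in ciNSLC. Trpa1, a cation channel that senses irritant chemicals, measured 24.1, 10.5 and 8.80 CPM on day 4, 22.8, 5.62 and 3.14 on day 8 and 6.43, 5.65 and 6.97 on day 12, and was close to absent elsewhere, with 1 of the 2 D0 and 2 of the 3 ciNSLC libraries at 0. Gpr83, a G-protein-coupled receptor of the brain, measured 23.1, 0.708 and 0.489 CPM on day 4, 26.0, 1.03 and 1.33 on day 8 and 115, 24.6 and 28.1 on day 12, and 0.0868 and 0.0374 CPM at D0 and 0.320, 0 and 0.273 in ciNSLC. On days 4 and 8 its mean rested on batch 1, where it stood at 23.1 and 26.0 CPM against at most 1.33 CPM in batch 2. Kcnb2 and Kcnh1, voltage-gated potassium channels, ranged from 7.32 to 27.0 and 1.42 to 29.9 CPM, and Chrnb1, the beta subunit of the muscle acetylcholine receptor, from 13.46 to 41.8 CPM. The second Kcnb2 identifier, which lies 674 bases from the first, gave 3.54 to 13.6 CPM. Tmem150c, a membrane protein tied to mechanosensitive currents, ranged from 1.96 to 10.7 CPM.

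Genes of milk, of the prolactin family and of granule proteases and their inhibitors made up 5 of the 62. Csn3, the milk protein kappa-casein, measured 491, 107 and 88.6 CPM on day 4, 769, 22.1 and 25.9 on day 8 and 29.9, 9.80 and 7.37 on day 12, and 0.724 and 0.187 CPM at D0 and 0.249, 0.0691 and 0.218 in ciNSLC. In batch 1 it was the highest of all 62 genes on day 8, and in both batches it was lowest on day 12. Prl2c2 and Prl2c3, proliferins of the prolactin family that lie within 500 kb of each other, measured 54.0, 6.02 and 6.76 CPM and 36.2, 1.83 and 2.73 CPM on day 4. They are near-identical copies, so the split of reads between them is uncertain. Serpinb9b, a serine protease inhibitor, ranged from 14.7 to 45.5 CPM. Csn3 was the only one of 15 milk protein and lactation genes in the set. Mcpt8, a protease of basophil granules, measured 30.6, 11.6 and 14.2 CPM on day 4, 11.1, 4.36 and 2.77 on day 8 and 4.16, 33.1 and 41.2 on day 12, and 0.0868 and 1.20 CPM at D0 and 0, 0 and 0 in ciNSLC. The sum of 12 myeloid markers was 18.2 and 5055 CPM at D0, 292.2 to 367.9 CPM on day 4, 28.3 to 144.3 CPM on day 8 and 14.8 to 23.4 CPM on day 12. Both were lower on day 8 than on day 4, while on day 12 Mcpt8 was highest in batch 2 and the marker sum was the lowest of the treated days, and the part of myeloid cells was not tested.

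Metabolism and transport was the largest group, with 11 genes. Steap4, a metalloreductase of the endosomal and plasma membrane, measured 16.2, 54.6 and 66.2 CPM on day 4, 25.0, 492 and 499 on day 8 and 420.1, 222 and 235 on day 12, and 6.31 and 6.85 CPM at D0 and 8.38, 8.63 and 7.04 in ciNSLC. Pltp, the phospholipid transfer protein, measured 63.4, 125 and 143 CPM on day 4, 74.6, 238 and 241 on day 8 and 50.7, 174 and 180.4 on day 12, with 6.42 and 31.7 CPM at D0 and 6.86, 7.53 and 1.36 in ciNSLC, but its span overlaps that of Ctsa on the other strand, and the strand setting of the counting is not given in the sources used here. Inmt, which methylates tryptamine and related amines, measured 10.2, 26.8 and 41.3 CPM on day 4, 46.3, 24.5 and 14.1 on day 8 and 3.84, 10.9 and 12.1 on day 12, with at most 0.138 CPM in any D0 or ciNSLC library. Dio2, which converts thyroxine to the active thyroid hormone, ranged from 14.1 to 74.7 CPM, Fmo2, a flavin monooxygenase, from 10.4 to 141, and Galnt3, which starts mucin-type glycosylation, from 13.2 to 44.8. The drug efflux pump Abcb1a ranged from 3.30 to 18.6 CPM, the glucuronosyltransferase Ugt1a7c from 8.41 to 32.8, the phospholipase Pla1a from 3.40 to 30.4, the pyrimidine-degrading enzyme Dpyd from 8.03 to 24.7 and the ceramidase Acer2 from 2.68 to 7.94. Ugt1a7c shares exons with the other Ugt1a genes and overlaps Ugt1a6a, so its value is uncertain. Of 20 genes of xenobiotic and glutathione metabolism, Inmt alone was in the set.

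Transcription and meiosis genes numbered 3. Rec8, the cohesin subunit of meiotic chromosomes, measured 6.33, 18.9 and 22.6 CPM on day 4, 9.95, 28.5 and 24.8 on day 8 and 2.38, 16.6 and 18.6 on day 12, against 0.0289 and 0.0749 CPM at D0 and 0.178, 0.0691 and 0.164 in ciNSLC. Of 22 measured genes on a list of germline genes that DNA methylation silences, it was the one that met the selection. Cbfa2t3, a transcriptional corepressor, ranged from 4.17 to 17.8 CPM, and Tbx2, a T-box repressor, from 7.18 to 37.1 CPM. For all 3 the lowest treated library was a batch 1 library. In the neural group were the neurofilament genes Nefl, at 108, 27.5 and 21.9 CPM on day 4, 77.1, 12.6 and 9.37 on day 8 and 6.93, 22.2 and 26.6 on day 12, and Nefm, at 29.4, 35.1 and 27.6 CPM on day 4, 38.1, 15.6 and 16.4 on day 8 and 9.10, 43.9 and 42.0 on day 12. Their annotated spans overlap, so reads in the overlap are uncertain. Other genes of the set were Mmd, Fam46c, a noncanonical poly(A) polymerase that ranged from 13.3 to 51.7 CPM, and Fam110c, from 3.62 to 40.1 CPM.

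The selection fixed each day against D0 and ciNSLC but not the days against each other. It still bounded the days from below, since the lowest of the 3 day means had to pass the limits. Genes that fell below a limit on any day are thus missing from the 62 but not from all genes tested. The comparisons of days are therefore not free of the selection, and the shares over all genes serve as a scale only. The mean was highest on day 4 for 22 genes, on day 8 for 24 and on day 12 for 16, and lowest on day 12 for 29. The ratio of the highest to the lowest day had a median of 2.08, with a range of 1.05 to 17.4. The quasi-likelihood test of edgeR, adjusted by Benjamini-Hochberg over all 17455 genes tested, called 3 of the 62 between day 4 and day 12 at an adjusted p under 0.05. The background rates were 2.5% of genes higher and 1.36% lower on day 12. Cldn1 was higher on day 12, with a log2 change of 3.79 (SE 0.56, adjusted p = 0.00482), from 27.7 ± 3.63 to 382 ± 159 CPM (SD, n = 3 each). Emcn was also higher, with a log2 change of 2.98 (SE 0.58, adjusted p = 0.0149), from 6.73 ± 4.49 to 52.9 ± 2.21 CPM. Stra6 was lower, with a log2 change of -2.68 (SE 0.46, adjusted p = 0.0089), from 386 ± 106 to 63.3 ± 39.3 CPM. The day 4 and day 12 libraries of these 3 genes did not overlap. In the same comparison 3 of 20 tested retinoid genes were higher and 6 lower on day 12, the latter including Cyp26b1, which breaks down retinoic acid, with a log2 change of -5.02 (edgeR adjusted p = 0.015). Between day 4 and day 8, and between day 8 and day 12, none of the 62 was called by edgeR, beside 0.16% of all genes in either comparison. DESeq2 called 5 and 3 of the 62 in those comparisons, beside 1.56% and 3.04% of all genes, and 7 between day 4 and day 12, beside 9.1%.

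A fit with the replicate number as a block called 6 of the 62 between day 4 and day 12, beside 6.28% of all genes. The genes added were Csn3, with a blocked log2 change of -3.68 (SE 0.65, edgeR adjusted p = 0.00982), Bmp2, with -1.84 (SE 0.42, edgeR adjusted p = 0.0286), and Gpr83, with 4.21 (SE 0.75, edgeR adjusted p = 0.00987). The block also called Gpr83 between day 8 and day 12, with a log2 change of 3.78 (edgeR adjusted p = 0.0479), where it called 0.71% of all genes. Within batch 2 alone, which has 2 libraries per day, edgeR called 12 of the 62 between days 4 and 8, of which 4 were higher (background 1.94%) and 8 lower (1.31%). Between days 8 and 12 it called 7 higher (3.96%) and 7 lower (4.41%), and between days 4 and 12 it called 12 higher (8.19%) and 8 lower (8.04%). In batch 2 Steap4 went from 54.6 and 66.2 CPM on day 4 to 492 and 499 on day 8 and 222 and 235 on day 12, and both steps were called, with log2 changes of 2.99 (edgeR adjusted p = 0.000637) and -1.11 (edgeR adjusted p = 0.00823). Olr1 went from 15.8 and 14.7 CPM on day 8 to 264 and 225 on day 12, a log2 change of 4.00 (edgeR adjusted p = 0.000179). The single batch 1 libraries went the other way between those days for both genes, from 126 to 40.2 CPM for Olr1 and from 25.0 to 420.1 CPM for Steap4. Batch 1 has 1 library per day and allows no test of its own. The p-values within batch 2 measure the spread within pairs of close libraries, with a chi-square per degree of freedom of 6.21 to 74.6. They do not cover the difference between batches.

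**Figure D3:**
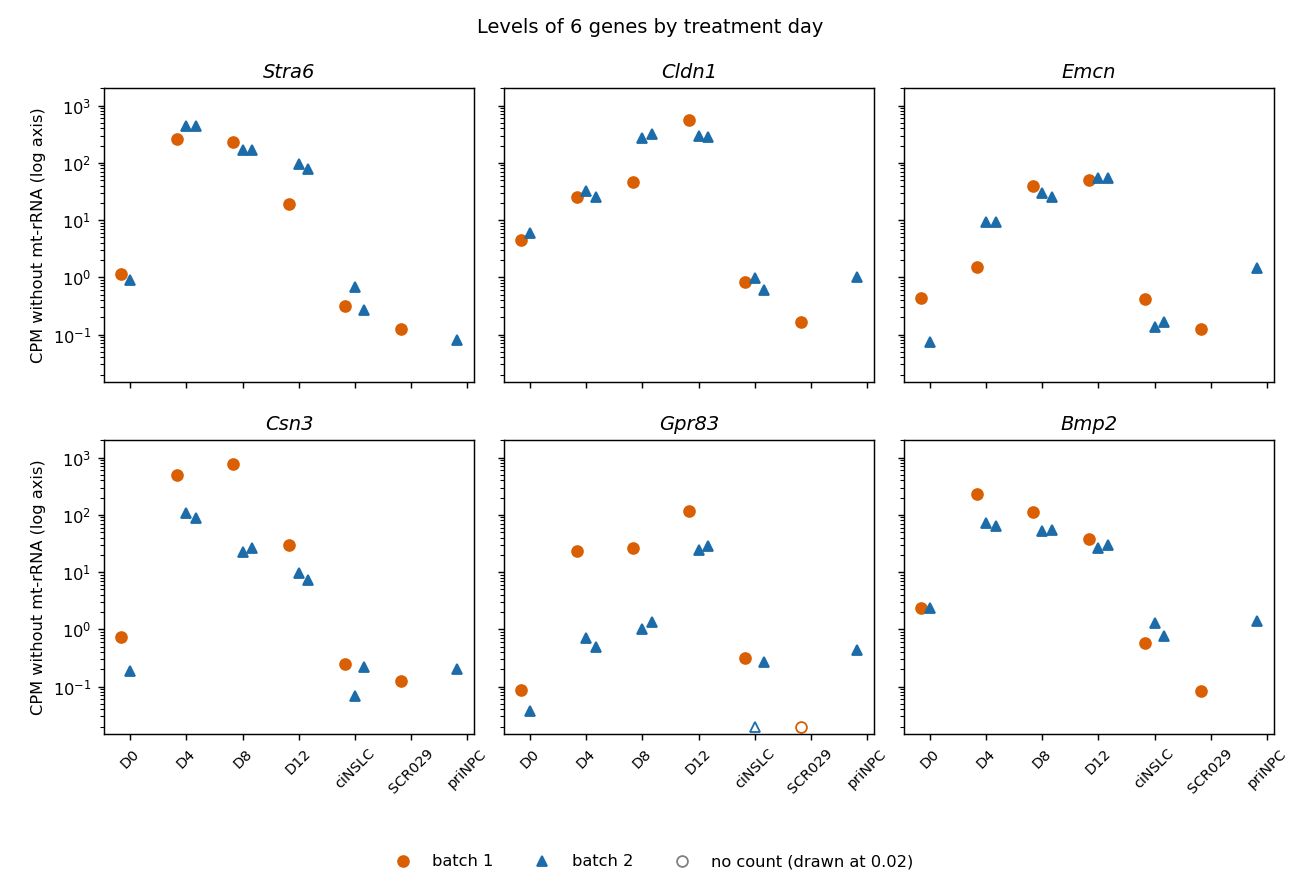
CPM of Stra6, Cldn1, Emcn, Csn3, Gpr83 and Bmp2 in each library (log axis), by group. Circles are batch 1 and triangles batch 2 libraries, and open symbols mark libraries without a count. Stra6 falls and Cldn1 and Emcn climb from D4 to D12 in both batches, while from D4 to D12 Csn3 and Bmp2 go down and Gpr83 goes up in both batches, at different levels.

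The selection used means over both batches, so a gene could enter through the batch in which it was high: 26 of the 62 met the limits in batch 2 alone and not in batch 1, and 9 the reverse. The batch values of the 62 are therefore a description, and nothing is read from their counts. A comparison of the 6 batch 2 with the 3 batch 1 treated libraries, chosen after the values were seen and fitted with day as the other term, called 32 of the 62 genes by edgeR's quasi-likelihood test. Of these 21 were higher in batch 2, where 19.2% of 16218 genes were, and 11 were lower, where 20.1% were. Without D12 replicate 1 these counts were 21 and 24, beside 21.6% and 21.1% of all genes, and the median log2 change of the 62 went from 0.14 to -0.17. All batch 2 libraries lay above all batch 1 libraries for 27.4% of the 62 and for 25.1% of the 10770 genes with a mean of at least 5 CPM over the treated libraries, and the reverse held for 6.45% and 9.37%. The Hedgehog genes Gli1, with 3.26 (SE 0.47), and Hhip, with 1.95 (SE 0.66), were among the 6 with the largest log2 change upward, by edgeR. Lepr followed the same direction with 2.29 (SE 0.37), Angptl7 with 2.00 (SE 0.24), Rgs5 with 1.91 (SE 0.41) and Rec8 with 1.71 (SE 0.26) in the same edgeR fit. All 3 transcription and meiosis genes were called higher in batch 2, and they met the limits in batch 2 alone but not in batch 1 alone. Of the 5 milk, prolactin family and protease genes, 4 were called lower in batch 2. In batch 1 alone 4 of these 5 met the limits, and in batch 2 alone 2 did. The roles were given after the genes were known, so nothing is read from these counts either. Among the genes lower in batch 2 were Csn3 at -3.46 (SE 0.51), Prl2c3 at -3.27 (SE 0.63), Prl2c2 at -2.29 (SE 0.55) and Gpr83 at -4.19 (SE 0.46), again by edgeR. Bmp2 and Bmp6 were lower in batch 2 too, at -1.36 and -1.02. Stra6, Cldn1 and Emcn, the genes called between days, were not called between batches, with log2 changes of 0.46, 0.11 and 0.17 and SEs of 0.39, 0.53 and 0.41. Of the 62, 19 met the limits in each batch on its own and 8 in neither. The first day 12 library was the lowest of the 9 treated libraries for 22 of the 62 genes, and the first day 4 library for 16. These counts were not taken over all genes, so they are not read as a trait of the 62. What differed between the batches apart from the mitochondrial rRNA share is not given in the sources used here, and its part in these values was not tested.

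**Figure D4:**
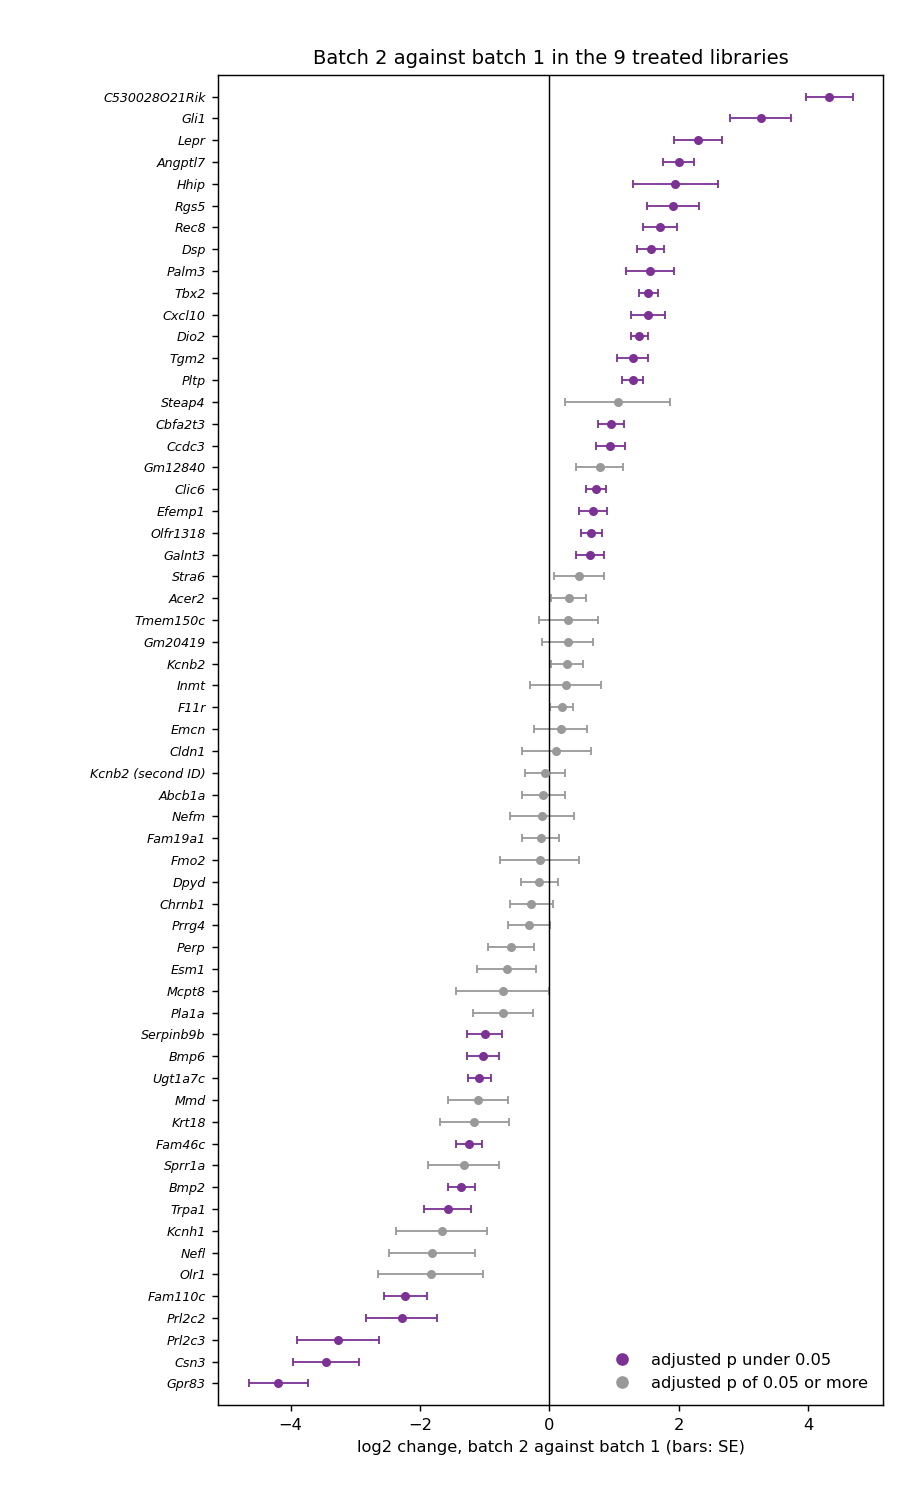
Log2 change between batch 2 and batch 1 for 60 of the 62 genes over the 9 treated libraries, sorted, with bars for the SE of the edgeR fit. Purple points passed an adjusted p under 0.05 and grey points did not; Gli1 lies near the top at 3.26, and Csn3 and Gpr83 at the bottom at -3.46 and -4.19.

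The neural control libraries, which the selection did not use, were also low for most of these genes. In SCR029 61 of the 62 (98.4%) stood at no more than 0.2 times their lowest treated mean, and in priNPC 53 (85.5%), the same 53 in both. Of the 89 genes that met the condition against D0 but not the one against ciNSLC, the shares were 36.0% and 15.7%. With 1 library each there is no test, and these neural cells resemble ciNSLC, whose levels were part of the selection. The median level of the 62 was 0.126 CPM in SCR029 and 0.458 CPM in priNPC, and 20 and 10 of them had no count there. In priNPC Dpyd reached 14.8 CPM (95% exact Poisson interval 13.3 to 16.4), within its treated range, and Nefm 5.46 CPM (4.58 to 6.45). These intervals cover counting error only. Rec8 at 3.58 CPM, Tmem150c at 2.71, Acer2 at 2.35 and Emcn at 1.43 were further exceptions in priNPC. Krt18, Trpa1 and both proliferins had no count in either control.

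**Figure D5:**
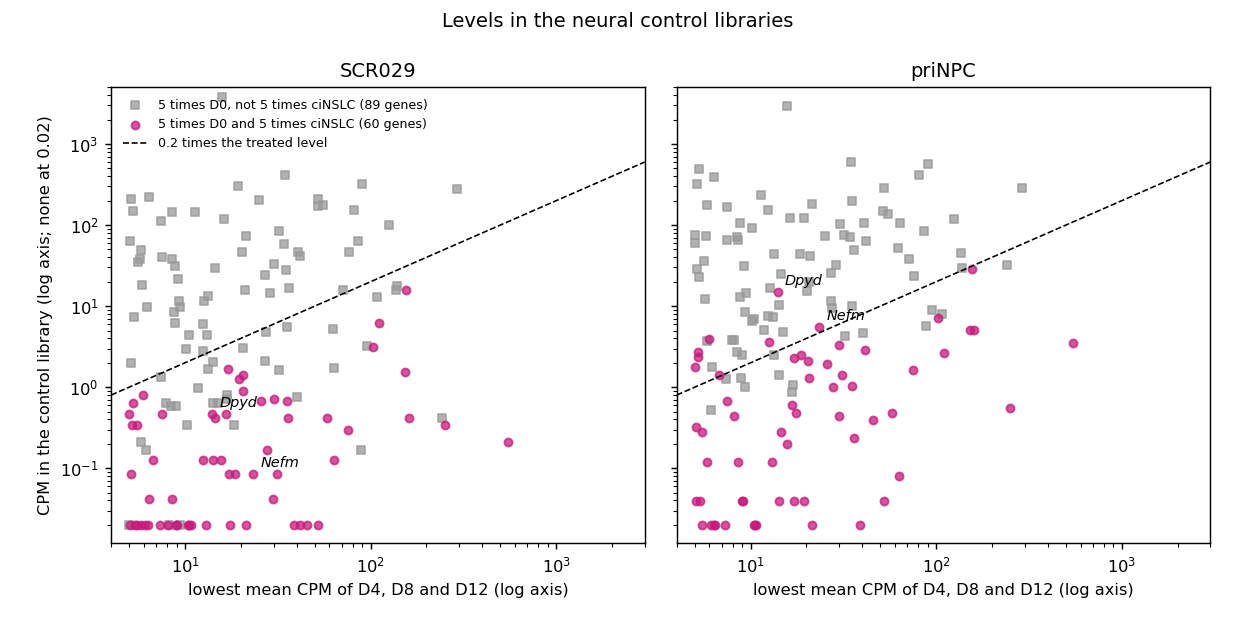
CPM in SCR029 (left) and priNPC (right) against the lowest mean CPM of D4, D8 and D12, both on log axes, with genes without a count drawn at 0.02. Pink circles are 60 of the 62 genes, grey squares the 89 genes that were not 5 times above ciNSLC, and the dashed line marks 0.2 times the treated level; Dpyd and Nefm lie above the line in the priNPC panel.

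The 62 genes lie on 16 chromosomes, with 8 on chromosome 1. Within 500 kb of each other were Nefl and Nefm, Prl2c2 and Prl2c3, Kcnb2 and Trpa1, Bmp6 and Dsp, and Rec8 and Mcpt8. The members of a pair did not always move together: Rec8 was higher and Mcpt8 not called between batches, and Dsp was higher in batch 2 at 1.57 (SE 0.21) while Bmp6 was lower at -1.02 (SE 0.25), by edgeR. Some spans overlap that of a gene on the other strand with at least 5 CPM in treated libraries. These include Pltp with Ctsa, Tgm2 with Rprd1b, Angptl7 with Mtor and Bmp6 with Txndc5. Their counts are uncertain to the extent that reads were not separated by strand. Ugt1a7c and Ugt1a6a, the latter at 19.99 CPM, lie on the same strand, so strand would not separate their reads. Acer2 overlaps a second identifier of its own symbol, also on the same strand, whose level is not given here.

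Promoters of 41 of the 62 are in a RefSeq table of the GRCm38.p6 build, each with 250 bases before and 50 after the first listed start, and were searched on both strands. The hexamer CACCTG, a form of the E-box that Snail and Zeb repressors of epithelial genes bind, was in 43.9% of these 41 promoters and in 20.0% of all 27025 promoters. The share was 22.0% and 10.3% in the 150 bases nearest to and beyond the start. In the whole window the hexamer was present in 5 of the 6 epithelial junction and cytoskeleton genes with a promoter in the table. In Krt18, F11r, Sprr1a and Palm3 it lay 122 to 245 bases before the start, outside the 150 bases. Of those 5 genes, Dsp alone held it within the 150 bases. The GC box GGGCGG was in 43.9% against 35.9%, the AP-1 site TGACTCA in 12.2% against 5.17%, the CRE TGACGTCA in 4.88% against 1.88%, and TATAAA in 19.5% against 14.2%. The nuclear receptor half-sites AGGTCA and AGTTCA were each in 19.5%, against 16.04% and 14.02%, and their direct repeats with 5 or 2 bases between were in none, against 0.0407% and 0.037% of all promoters. The TCF letters CTTTGAA and CTTTGAT were each in 4.88%, against 5.27% and 3.72%, the hypoxia core ACGTG was in 4.88% against 19.7%, and CACGTG, which contains that core, in 2.44% against 7.24%. The Gli site GACCACCCA, added after the genes were known, was in none, against 0.244%. The median ratio of observed to expected CpG was 0.511 against 0.389, and the median GC content 56.0% against 52.7%. The set of all promoters was matched to the 41 neither for coding genes, a closer background, nor for GC content. These shares are descriptions of a short window and carry no test.

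The bases before the start are shown for 3 epithelial genes that hold CACCTG, with that hexamer on either strand in capitals.
They are Krt18 (chr15:102027966-102028215, plus strand), F11r (chr1:171437311-171437560, plus strand) and Sprr1a (chr3:92485882-92486131, minus strand), all in GRCm38.p6 and written 5′ to 3′ on the strand of the gene.
Krt18: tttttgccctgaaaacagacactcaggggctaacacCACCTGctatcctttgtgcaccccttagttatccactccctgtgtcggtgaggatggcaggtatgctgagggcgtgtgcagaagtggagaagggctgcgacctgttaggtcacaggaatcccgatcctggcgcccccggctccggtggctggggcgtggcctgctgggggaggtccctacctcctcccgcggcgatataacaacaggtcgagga
F11r: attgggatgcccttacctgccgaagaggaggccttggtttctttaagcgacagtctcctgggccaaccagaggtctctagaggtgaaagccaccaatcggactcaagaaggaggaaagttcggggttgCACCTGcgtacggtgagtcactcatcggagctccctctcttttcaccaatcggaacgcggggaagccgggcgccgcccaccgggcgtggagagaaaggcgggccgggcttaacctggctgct
Sprr1a: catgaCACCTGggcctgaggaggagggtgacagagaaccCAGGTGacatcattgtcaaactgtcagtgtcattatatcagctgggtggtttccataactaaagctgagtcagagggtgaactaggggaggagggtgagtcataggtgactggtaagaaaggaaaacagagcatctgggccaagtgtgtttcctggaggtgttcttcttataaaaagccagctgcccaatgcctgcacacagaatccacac

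The same stretch is shown for the 3 genes called between day 4 and day 12, with GGGCGG in capitals for Stra6 (chr9:58128838-58129087, plus strand, the first of 4 listed starts) and Cldn1 (chr16:26371840-26372089, minus strand) and AGGTCA in capitals for Emcn (chr3:137340828-137341077, plus strand), on either strand.
Of the motifs searched, Stra6 and Cldn1 held only GGGCGG and Emcn only AGGTCA.
Stra6: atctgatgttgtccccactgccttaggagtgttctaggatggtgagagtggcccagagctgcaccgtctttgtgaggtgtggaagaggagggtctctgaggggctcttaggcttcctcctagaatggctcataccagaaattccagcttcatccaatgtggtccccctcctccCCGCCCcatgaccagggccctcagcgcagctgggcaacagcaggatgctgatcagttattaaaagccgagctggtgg
Cldn1: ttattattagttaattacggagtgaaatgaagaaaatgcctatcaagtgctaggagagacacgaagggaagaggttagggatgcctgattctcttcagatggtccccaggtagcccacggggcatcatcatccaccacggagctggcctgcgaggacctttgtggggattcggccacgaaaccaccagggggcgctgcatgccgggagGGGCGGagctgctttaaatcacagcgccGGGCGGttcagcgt
Emcn: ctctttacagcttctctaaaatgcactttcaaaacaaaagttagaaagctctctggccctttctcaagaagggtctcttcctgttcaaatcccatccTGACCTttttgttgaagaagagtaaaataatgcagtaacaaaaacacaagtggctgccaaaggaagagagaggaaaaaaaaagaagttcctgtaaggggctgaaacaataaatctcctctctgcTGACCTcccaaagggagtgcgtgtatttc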

How the data were processed

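RNA was purified, amplified by the Ovation RNA-Seq V2 system (random and poly-T primers) and sequenced paired-end, per the labels' protocols. The submitters' processing notes name TopHat2 2.0.13, featureCounts from Subread, edgeR and the mm9 genome. The deposited raw counts per gene of 16 libraries were used for every level and fit. The deposited CPM, FPKM, other normalized CPM and feature lengths, per the file headers, entered no fit, and the length was used for CPM per kilobase. The 62 genes, the gene lists and the tests were chosen with earlier results of these data known, and the roles after the genes were known. The values of 2 of the 62 are not reported here and not drawn, but all 62 enter the counts and medians. Levels are CPM after removal of mt-Rnr1 and mt-Rnr2, while log2 changes come from fits with TMM scaling. Days were compared with edgeR 4.0.16 in R 4.3.3 (default expression filter, TMM, robust quasi-likelihood fit on group over the 14 libraries that are not controls, 17455 genes, biological coefficient of variation 0.418), with Benjamini-Hochberg adjustment over all genes and a threshold of 0.05. On simulated counts for D12 against D4 with 16829 genes, 6% of 50 genes changed 2-fold, 58% changed 4-fold and 100% changed 8-fold were called. These counts had the same biological coefficient of variation for all genes, no batch difference and no weakly expressed genes among those changed. The shares therefore do not hold for the real libraries, where Csn3, at a log2 change of -3.93, was not called (edgeR adjusted p = 0.133). Nothing in the labels tells whether replicates came from separate cultures, so p-values measure the spread between libraries, which may be technical. Same-numbered libraries of days 4, 8 and 12 deviated together from their group means (correlations of 0.222 to 0.655 over genes), but batch 2 libraries with different numbers did so too (0.215 to 0.527), so the block also stands for the batch. Genes named were the 10 with the widest margin, the 10 with the highest CPM per kilobase, those called between days, those on a list, those highest in the controls and those nearest to a limit; the other named genes were added by role after their values were seen. Alternatives were other scalings and filters, DESeq2 1.42.0, limma 3.58.1 voom, a batch term, a replicate block, single batches and each library left out.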

Additional observations from a re-analysis of the deposited data

How the results depend on the processing

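The number of genes that met the selection was 42 with TMM-scaled CPM and 44 with mitochondrial rRNA kept, and it was 103 at a fold of 3, 31 at a fold of 10, 120 at a minimum of 1 CPM and 41 at 10 CPM. It was 13 when every library had to meet it and 45 in batch 1 or 59 in batch 2 alone, of which 28 and 45 are among the 62, and 52 to 77 with each library left out. Between days 4 and 8 the calls among the 62 were 2 with a batch term, 5 with DESeq2 and 12 in batch 2, between days 8 and 12 they were 2, 3 and 14, with 1 under voom and 1 under the replicate block, and between days 4 and 12 they were 8, 7 and 20, with 6 under the block and 6 with the compared groups alone. With each library left out these ranges were 0 to 2, 0 to 0 and 2 to 8, and 28 to 45 between batches. Over all genes the same fits called 0 to 67, 3 to 89 and 195 to 861 of 17322 to 18474 genes. Between batches they called 4192 to 7180 of 16778 to 16895 genes. Over all genes, the calls between days 4 and 8 were 28, and 43 without a filter, 102 with a batch term, 45 with the block, 273 with DESeq2, 10 with voom, 1 with the compared groups alone and 578 in batch 2. Between days 8 and 12 they were 28, and in the same order 67, 279, 124, 530, 122, 6 and 1492. Counts over all genes between days 4 and 12 were 1400 with a batch term, 1097 with the block, 1589 with DESeq2 and 2894 in batch 2 against 675, and 195 without D4 replicate 2 or 3. With the compared groups alone the count was 578 of 15592 genes. Emcn missed the threshold without D4 replicate 2 or 3 (edgeR adjusted p = 0.0501 and 0.0554), while Cldn1 and Stra6 stayed called in all alternatives. In the batch comparison the adjusted p of Hhip, Galnt3, Efemp1, Prl2c2, Serpinb9b, Bmp6, Ccdc3 and Trpa1 was above 0.05 in 7, 6, 5, 3, 2, 1, 1 and 1 of 15 alternatives. None of the called log2 changes of single genes changed sign, but the median log2 change of the 62 between days 4 and 8 went from 0.10 to -0.12 in batch 2 alone. The share of promoters in the narrower window was 7.32% for AGGTCA, 2.44% for AGTTCA, 0% for CTTTGAT and CACGTG and 22.0% for CACCTG, against 8.16%, 6.65%, 1.75%, 4.41% and 10.3% of all promoters, so both half-sites went from above to below the share of all promoters. The cause of these shifts was not tested.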

Other observations

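Some of the gene lists that hold few or none of the 62 genes also split by batch in the 9 treated libraries. Of 15 tested interferon-stimulated genes, 12 were called higher in batch 2 and none lower by edgeR, with a median log2 change of 2.03, beside 19.2% of all genes called higher and 20.1% lower. Cxcl10, which interferon induces and which is 1 of the 62, was higher in batch 2 with a log2 change of 1.52 (SE 0.26) in the same edgeR fit. Of 17 targets of FGF and ERK signalling, 1 was higher and 9 were lower in batch 2, with a median log2 change of -0.71. Spry4, a feedback inhibitor of that route, measured 139, 35.6 and 36.2 CPM on day 4, 195, 38.0 and 39.3 on day 8 and 627, 361 and 381 on day 12. Of 11 tested Hedgehog genes, 5 were higher and 1 was lower in batch 2, and the median log2 change was 1.27. Of 13 fibroblast and mesenchyme markers, 8 were higher in batch 2 and none lower, with a median log2 change of 1.01, and of 12 tested neural stem and radial glia markers none was higher and 7 were lower, with a median of -1.14. This comparison was chosen after the values were seen, and what the batches differ in was not tested.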
